A study of Mus musculus with 18 samples.

Results

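Pgm5, Egflam, Rprm, Basp1, Tmsb10, Smpd3, Dock11 and B3galt5 are 8 of the 23929 genes measured in mouse hindlimbs with and without the transcription factor Pitx1. They were picked by symbol because an earlier reading of the same libraries showed a knockout effect that differed between embryonic stages. The knockout effects and their differences between stages are therefore given here as descriptions, with no p-value for these genes. Messenger RNA was sequenced from C57BL/6 embryos, either wild type or Pitx1-/- (labelled Pitx1 KO), at embryonic day (E) 9.5, E11.5 and E12.5, with 3 libraries in each of the 6 groups. The E9.5 tissue was the hindlimb field together with adjoining trunk, and the later tissue was hindlimb. No other allele or treatment is given for any group. The labels do not say whether replicate libraries came from separate embryos or litters, or whether embryos were pooled, so every p-value measures only the spread between these libraries.

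Pitx1 is a homeodomain factor of the bicoid class that is expressed in the hindlimb and not the forelimb bud and helps to give the hindlimb its identity. As the limb bud grows, its mesenchyme condenses into cartilage, while muscle precursors migrate in from the somites and nerves, vessels and macrophages enter. The 8 genes have unrelated roles in this setting. Pgm5 encodes aciculin, a phosphoglucomutase relative without that enzyme's usual activity, found at adhesion sites of muscle cells. Egflam encodes pikachurin, a secreted ligand of dystroglycan. Rprm encodes Reprimo, a p53-responsive protein that can hold cells before mitosis. Basp1 encodes a membrane-bound acidic protein of growth cones that also acts as a partner of WT1. Tmsb10 encodes a thymosin that binds actin monomers. Smpd3 encodes neutral sphingomyelinase, which makes ceramide and is known for its role in skeletal growth. Dock11 encodes an exchange factor for the GTPase CDC42. B3galt5 encodes a galactosyltransferase of glycan chains.

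The libraries held 14361919 to 60672151 fragments. At E11.5 the knockout libraries (44986881 to 60672151) were all deeper than the wild-type libraries (38770845 to 40973174). Pitx1 itself had a mean RPKM (fragments per kilobase of transcript, scaled to library size) in the knockout of 41.1% of the wild-type mean at E9.5, 16.9% at E11.5 and 13.2% at E12.5. The genotypes did not overlap at any stage. The Pitx1 level in wild-type replicate 3 at E12.5 (44.6 RPKM) stood well under the other E12.5 wild-type libraries, though above every knockout library. Markers of limb mesenchyme were present in every group, with summed levels that overlapped between genotypes at each stage. Of these 12 markers 1, Tbx4, was called lower in the knockout at E11.5 and at E12.5 (edgeR adjusted p under 0.05). In whole tissue, fewer cells of a type and less RNA per cell cannot be told apart.

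The sequences just upstream of the start sites were compared for shared features. RefSeq promoter tables (build GRCm38.p6) matched 7 of the 8 genes with 12 windows of 250 bases. The windows of Pgm5 and Rprm, the genes whose difference between stages edgeR called, and of Basp1 and Dock11, which moved the opposite way at E11.5, are shown 5′ to 3′ with CG dinucleotides in capitals.
Pgm5, chr19:24861843-24862092, - strand: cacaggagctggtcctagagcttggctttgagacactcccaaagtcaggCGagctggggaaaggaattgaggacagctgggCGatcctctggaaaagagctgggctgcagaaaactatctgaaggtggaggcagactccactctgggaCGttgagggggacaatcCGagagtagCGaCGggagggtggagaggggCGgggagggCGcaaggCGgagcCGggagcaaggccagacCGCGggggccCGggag
Rprm, chr2:54085553-54085802, - strand: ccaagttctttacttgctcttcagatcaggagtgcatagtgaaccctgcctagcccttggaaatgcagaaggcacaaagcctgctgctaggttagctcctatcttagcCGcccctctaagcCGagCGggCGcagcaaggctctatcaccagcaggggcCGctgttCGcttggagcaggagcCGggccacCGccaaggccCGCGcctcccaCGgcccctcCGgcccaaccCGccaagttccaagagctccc
Basp1, chr15:25413765-25414014, - strand: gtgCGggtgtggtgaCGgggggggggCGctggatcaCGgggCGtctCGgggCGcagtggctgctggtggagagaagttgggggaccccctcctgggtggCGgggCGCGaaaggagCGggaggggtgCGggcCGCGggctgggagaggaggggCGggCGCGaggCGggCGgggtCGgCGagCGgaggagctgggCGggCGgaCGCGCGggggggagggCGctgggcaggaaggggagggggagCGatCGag
Dock11, chrX:35888582-35888831, + strand: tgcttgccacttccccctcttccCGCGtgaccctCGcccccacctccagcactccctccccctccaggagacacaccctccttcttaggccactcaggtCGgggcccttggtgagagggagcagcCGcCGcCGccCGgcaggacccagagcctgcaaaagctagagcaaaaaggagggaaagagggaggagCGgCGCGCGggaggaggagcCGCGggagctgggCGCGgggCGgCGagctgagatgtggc
CG dinucleotides numbered 13 in the Pgm5 and Rprm windows, 18 in that of Dock11 and 30 in that of Basp1. The median over the 12 windows was 17, against 15 over 14403 windows of genes tested at E11.5 and E12.5. The bicoid-class motif TAATCC, read on both strands, was in 0 of the 12 windows and in 6.25% of all 32851 windows. The E-box CANNTG was in 4 of the 12 windows, belonging to Pgm5, Tmsb10 and B3galt5, and in 66.2% of all windows or 58.6% of those of tested genes. The windows overlap in part, since the pair from Egflam start almost together. The TATA box motif TATAAA, also read on both strands, was in 0 of the 12 and in 12.4% of all. These are descriptions of letters in a short stretch and say nothing of binding.

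At E9.5 none of the genes stood apart between genotypes. The RPKM ranges of knockout and wild type overlapped for 8 of the 8, where 9.29% of all genes tested did not overlap. By the edgeR quasi-likelihood test with an adjusted p under 0.05, 0 of the 8 were called, beside 0.0217% of all genes and 553 genes at an unadjusted p under 0.05. DESeq2 also called 0 of the 8, beside 0.138% of all genes. The log2 differences (knockout minus wild type) lay between -0.29 ± 0.78 (SE) for B3galt5 and 0.10 ± 0.12 for Rprm. All 8 genes passed the filter on low counts at each stage.

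At E11.5 the genes split into a lower and a higher set. In the knockout Pgm5, Egflam, Rprm and B3galt5 were lower, and Basp1, Tmsb10 and Dock11 were higher. These 7 of 8 did not overlap between genotypes, against 27.7% of all genes tested. By edgeR 4 of the 8 were called lower, beside 1.01% of all genes, and 3 higher, beside 0.945%, which makes 7 beside 1.96%, and DESeq2 called the same 7 genes beside 9.3% of all. Those shares are printed for scale, since this contrast helped choose the genes. The calls rested on single libraries: without wild-type replicate 1 edgeR called 0 of the 8 (9 genes in all), without knockout replicate 3 it called 1, Pgm5 (14 in all), and without wild-type replicate 2 or knockout replicate 2 it called 5. Over these fits the log2 difference ranged from -1.43 to -1.21 for Pgm5, from 0.61 to 0.77 for Dock11 and, most widely, from -5.04 to -3.38 for B3galt5.

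**Figure D1:**
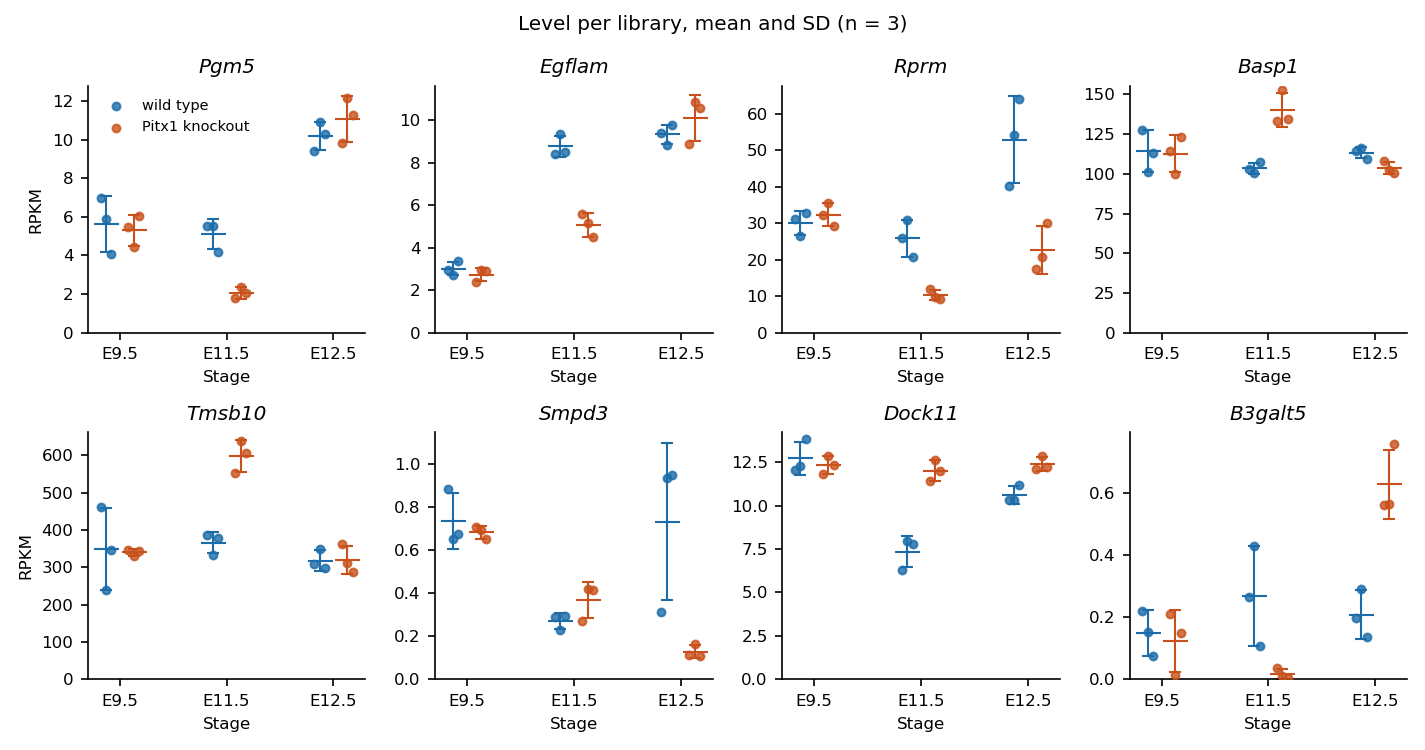
RPKM of each gene (vertical axis, linear, starting at 0) at each stage, with a point for each library, a bar for the mean of 3 libraries and whiskers for the SD. Wild type is blue and the Pitx1 knockout is orange. At E9.5 the genotypes overlap in every panel, and at E11.5 they are apart in every panel but that of Smpd3.

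Pgm5 levels at E11.5 were 5.54, 5.55 and 4.19 RPKM in the wild type and 1.77, 2.35 and 2.03 RPKM in the knockout. Every knockout library lay under every wild-type library, at a mean of 40.2% of the wild-type level, a log2 difference of -1.31 ± 0.14 (SE, n = 3 per genotype). At E12.5 the wild type had 9.43, 10.9 and 10.3 RPKM and the knockout 9.82, 12.2 and 11.3 RPKM. The groups again overlapped, as at E9.5, with a log2 difference of 0.12 ± 0.09.

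The adhesion gene's dip in the knockout thus sat at 1 sampled stage. From E11.5 to E12.5 the log2 knockout effect of Pgm5 moved by 1.42 ± 0.18, and between E9.5 and E11.5 by -1.22 ± 0.26. Leaving out each of the 12 libraries in turn gave 1.33 to 1.55 for the later difference.

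Egflam, the dystroglycan ligand, had 8.43, 9.36 and 8.52 RPKM in the E11.5 wild type and 5.60, 5.14 and 4.50 RPKM in the knockout. The ranges were apart, with a log2 difference of -0.79 ± 0.10. At E12.5 its levels were 9.42, 8.86 and 9.77 RPKM in the wild type and 8.88, 10.9 and 10.6 RPKM in the knockout. The groups overlapped and the log2 difference was 0.11 ± 0.09. The E12.5 effect was above the E11.5 effect by 0.89 ± 0.14 on the log2 scale.

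Rprm, the Reprimo gene, was lower in the knockout at both later stages. At E9.5 its levels were 31.0, 26.4 and 32.7 RPKM in the wild type and 32.2, 35.4 and 29.1 RPKM in the knockout, which overlapped. At E11.5 they were 25.8, 30.9 and 20.7 RPKM against 11.9, 9.64 and 9.18 RPKM, with every knockout library lower. At E12.5 they were 40.3, 54.0 and 64.1 RPKM against 17.5, 20.6 and 30.1 RPKM, again without overlap. The log2 differences were 0.10 ± 0.12, -1.33 ± 0.16 and -1.22 ± 0.24 in stage order. The stage dependence of Rprm therefore lay between E9.5 and E11.5, where its effect moved by -1.43 ± 0.21, and not between E11.5 and E12.5, where it moved by 0.11 ± 0.32. Tissue also differed between E9.5 and E11.5, so stage and dissection cannot be told apart in that difference.

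B3galt5, the galactosyltransferase, was nearly absent from the E11.5 knockout. Wild-type libraries held 53, 91 and 22 fragments and knockout libraries 11, 3 and 1, or 0.107 to 0.428 RPKM against 0.00451 to 0.0361 RPKM. All knockout libraries were lower although they were sequenced more deeply. Scaled by depth, the summed knockout count was 0.0648 of the wild-type count, with an exact 95% interval of 0.0355 to 0.110 that covers counting error only. At E12.5 the order was turned: wild-type libraries held 24, 40 and 27 fragments and knockout libraries 63, 85 and 86. The ratio there was 3.09, with an interval of 2.42 to 3.98.

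On the log2 scale the B3galt5 effect was -3.88 ± 0.73 at E11.5 and 1.59 ± 0.34 at E12.5, a difference of 5.45 ± 0.83, the largest among the 8 genes. The size rests on few fragments. Without knockout replicate 1 at E11.5 the difference became 6.59.

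Basp1, Tmsb10 and Dock11 made up the higher set at E11.5. Basp1, the growth cone protein gene, had 103, 100.5 and 107 RPKM in the wild type and 133, 153 and 135 RPKM in the knockout. The groups were apart by a log2 difference of 0.44 ± 0.08. At E12.5 it had 114, 116 and 109 RPKM in the wild type and 108, 103 and 100.6 RPKM in the knockout. The ranges were apart there too, in the opposite direction and by a smaller log2 difference of -0.13 ± 0.05.

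Tmsb10, the actin-binding thymosin gene and the most highly expressed of the 8 per length, had 388, 333 and 379 RPKM in the E11.5 wild type and 553, 637 and 606 RPKM in the knockout. All knockout libraries were higher, with a log2 difference of 0.71 ± 0.08. At E12.5 the wild type had 308, 349 and 297 RPKM and the knockout 362, 311 and 287 RPKM. These overlapped, with a log2 difference of 0.01 ± 0.10. At E9.5 the wild-type libraries alone spread from 240 to 461 RPKM, so the difference between E11.5 and E9.5 (0.74 ± 0.24) was less precise and became 0.49 without wild-type replicate 1 of E9.5.

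Dock11, the CDC42 exchange factor gene, had 6.31, 7.94 and 7.76 RPKM in the E11.5 wild type and 11.4, 12.6 and 12.01 RPKM in the knockout. All knockout libraries were higher. Both genotypes had 11.8 to 13.8 RPKM at E9.5, in a table the authors normalized separately. At E12.5 the levels were 10.3, 10.3 and 11.2 RPKM in the wild type and 12.1, 12.8 and 12.2 RPKM in the knockout. The groups remained apart, but the log2 difference was 0.71 ± 0.10 at E11.5 and 0.22 ± 0.06 at E12.5.

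Smpd3, the neutral sphingomyelinase gene, differed from the other 7 in its timing. At E11.5 it had 0.291, 0.228 and 0.295 RPKM in the wild type and 0.272, 0.418 and 0.413 RPKM in the knockout, which overlapped. At E12.5 the wild type had 0.311, 0.937 and 0.95 RPKM, from 40, 132 and 199 fragments, and the knockout 0.110, 0.164 and 0.109 RPKM, from 13, 26 and 13 fragments. Every knockout library was lower, and wild-type replicate 1 lay much nearer to them than the other wild-type libraries did. The log2 difference was 0.44 ± 0.30 at E11.5 and -2.50 ± 0.47 at E12.5. Without wild-type replicate 1 the E12.5 value was -2.86, and without replicate 3, the library with low Pitx1, it was -2.27.

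**Figure D2:**
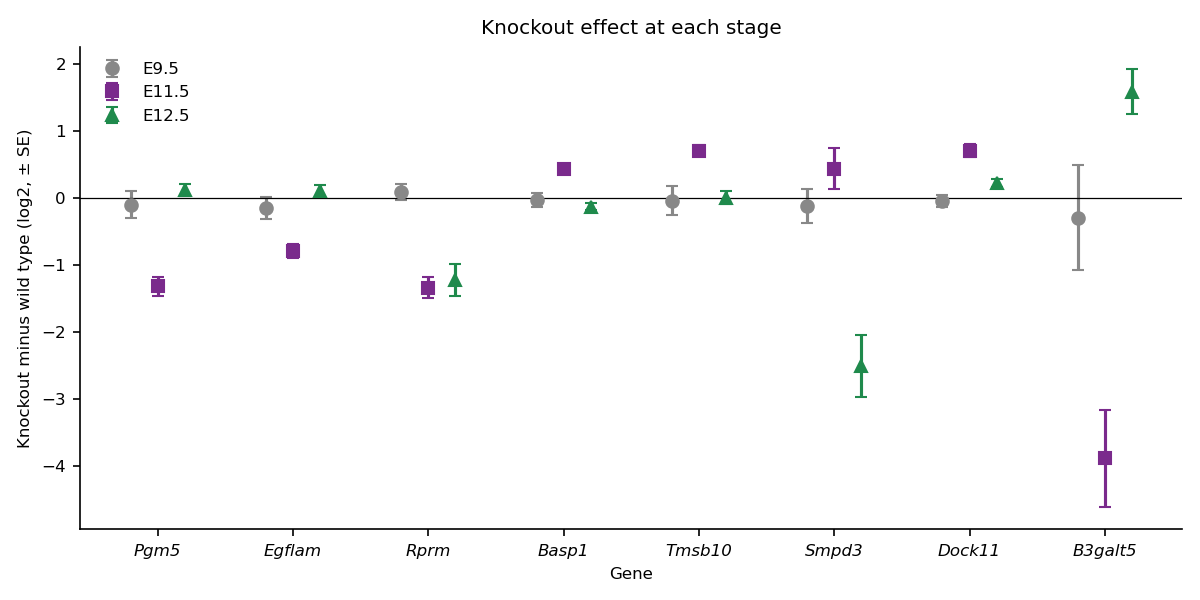
Log2 difference of knockout and wild type (vertical axis) for each gene at each stage, with whiskers for the SE of the edgeR fit (3 libraries per genotype). The E9.5 values lie near 0, the E11.5 values of Pgm5, Egflam, Rprm and B3galt5 lie below 0, and those of Basp1, Tmsb10 and Dock11 above.

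At E12.5 the edgeR test called 0 of the 8 genes, beside 0.0138% of all genes and 2185 genes at an unadjusted p under 0.05. DESeq2 called Rprm, Smpd3 and B3galt5, which is 3 of 8 beside 3.06% of all. The RPKM ranges were apart for 5 of the 8 (Rprm, Basp1, Smpd3, Dock11 and B3galt5), against 21.7% of all genes tested. With all 18 libraries in 1 fit edgeR called 2, Rprm and Smpd3. Without wild-type replicate 3 the E12.5 log2 differences were -1.05 for Rprm and 1.34 for B3galt5.

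The number of these genes called for a difference between stages depended on the test. Such calls restate how the genes were chosen and support nothing. For E12.5 against E11.5 edgeR called 1 of the 8, Pgm5, beside 0.00653% of 15324 genes, and no other gene in the whole table. DESeq2 called 7 of the 8, all but Rprm, beside 0.822% of all. For E11.5 against E9.5 edgeR called 1 of the 8, Rprm, beside 0.026%, and DESeq2 called 4 (Pgm5, Egflam, Rprm and Dock11) beside 2.9%. With all 18 libraries in 1 fit the calls of Pgm5 and Rprm were lost, and Dock11 was called for E11.5 against E9.5. Of the 12 fits with 1 library left out, Pgm5 passed in 4 and Rprm in 5.

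**Figure D3:**
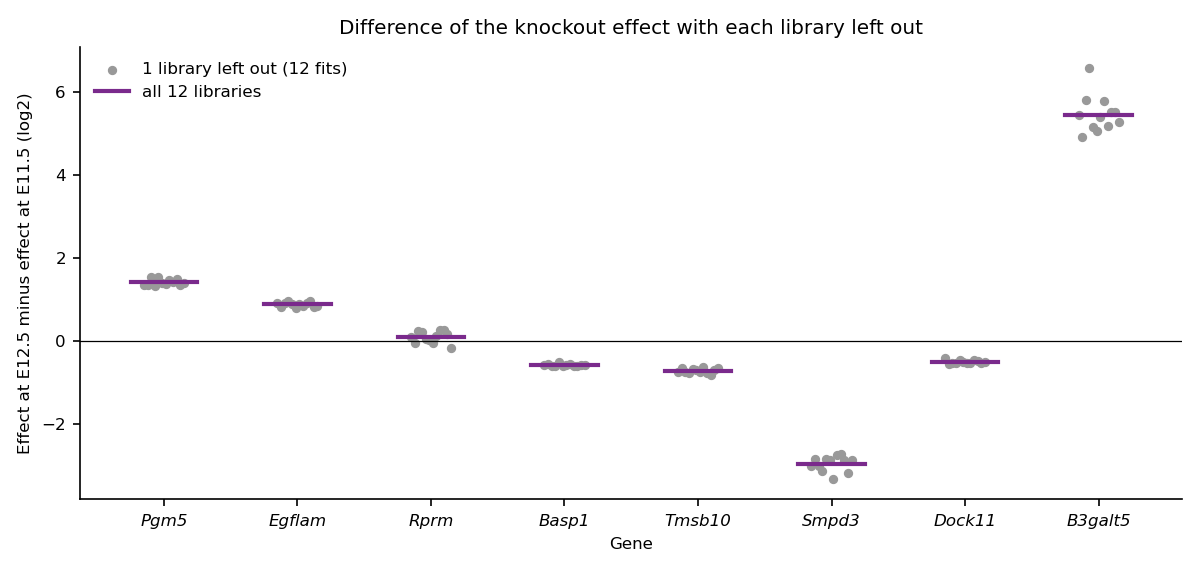
Knockout effect at E12.5 minus that at E11.5 (log2, vertical axis) for each gene. The purple bar is the fit of all 12 libraries and each grey point a fit without 1 library. The points of Rprm lie on both sides of 0, from -0.16 to 0.27, and those of each other gene lie on 1 side.

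The change with stage averaged over both genotypes was not used in choosing the genes and was tested. It uses the sum of the genotypes where the knockout effect uses their difference. Where 1 genotype hardly moved, the average restates the movement behind that difference. Its p-value is then no separate support for the stage-dependent effect. For B3galt5 the genotypes differ so much in precision that sum and difference are not independent, so its averages are given with no test. From E11.5 to E12.5 the average changed for 6 of the other 7 genes, against 54.2% of all genes tested, so such changes were common. Pgm5 rose by 1.64 ± 0.09 on the log2 scale (edgeR adjusted p = 1.53e-06). Its wild type rose by 0.94 and its knockout by 2.37 in mean log2 CPM (fragment counts scaled to library size, prior count 2). The changes per genotype given below for the other genes are on the same scale. Both genotypes of the adhesion gene therefore went up, the knockout by more.

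Rprm rose by 1.02 ± 0.16 (adjusted p = 3.57e-04), with like changes of 0.96 for wild type and 1.06 for knockout libraries. Egflam rose by 0.47 ± 0.07 (adjusted p = 1.18e-04), with 0.03 for wild type and 0.93 for knockout libraries. The B3galt5 average of 2.29 ± 0.41 combined -0.28 in the wild type with 4.53 in the knockout. The averages of Egflam and B3galt5 thus stood almost wholly on the knockout libraries. Dock11 rose by 0.22 ± 0.06 (adjusted p = 0.00823), with 0.47 for wild type and -0.02 for knockout libraries.

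The actin-binding thymosin gene Tmsb10 fell by 0.62 ± 0.07 on the log2 scale (adjusted p = 1.35e-05), with -0.27 for wild type and -0.97 for knockout libraries. Basp1 fell by 0.23 ± 0.05 (adjusted p = 9.77e-04), with the genotypes going opposite ways, 0.07 for wild type and -0.50 for knockout libraries. Smpd3 did not pass, with -0.11 ± 0.27 (adjusted p = 0.76), the average of a wild-type change of 1.18 and a knockout change of -1.50.

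From E9.5 to E11.5 the average changed for 6 of the 7 genes tested, against 65.3% of all genes, and the dissected tissue changed as well. Egflam rose by 1.15 ± 0.09 (adjusted p = 7.06e-08). Rprm fell by 1.01 ± 0.10 (adjusted p = 1.27e-06), Pgm5 fell by 0.83 ± 0.13 (adjusted p = 1.06e-04) and Smpd3 fell by 1.24 ± 0.19 (adjusted p = 6.12e-05). Dock11, the CDC42 exchange factor gene, fell by 0.49 ± 0.07 (adjusted p = 1.88e-05). Tmsb10 rose by 0.33 ± 0.12 (adjusted p = 0.0322), a call lost without any 1 of 8 libraries: wild-type replicate 3 or knockout replicate 1, 2 or 3 of E9.5, or wild-type replicate 1 or 3 or knockout replicate 2 or 3 of E11.5 (adjusted p from 0.0503 to 0.0682). Basp1 did not pass (0.01 ± 0.07, adjusted p = 0.861), and the B3galt5 average was -1.03 ± 0.59. In this interval too 1 genotype carried most of several averages. The changes in mean log2 CPM were -0.31 for wild type and -1.73 for knockout libraries in Rprm, and -0.20 and -1.44 in Pgm5. They were 0.00363 and 0.70 in Tmsb10, and -0.87 and -0.11 in Dock11. In Egflam (1.47 and 0.82) and Smpd3 (-1.47 and -0.96) both genotypes moved.

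**Figure D4:**
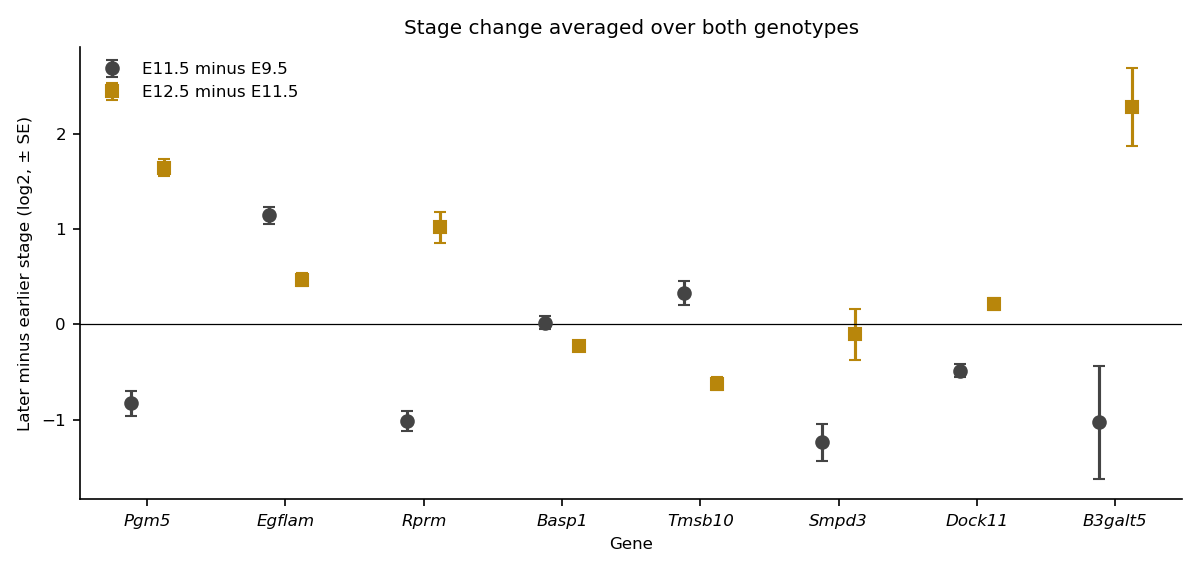
Later minus earlier stage, averaged over both genotypes (log2, vertical axis), for each gene, with whiskers for the SE of fits of 12 libraries. Circles compare E11.5 with E9.5 and squares E12.5 with E11.5. Pgm5, Rprm and Dock11 fell first and then rose, Egflam rose in both intervals, and Tmsb10 rose and then fell. B3galt5 was not tested.

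Genes of the same families and pathways were also tested for genotype. The 8 lists held 156 gene symbols, some of them older and newer names of the same gene. They covered actin turnover, GAP43 and MARCKS relatives, DOCK factors, adhesion partners of Pgm5 and the dystroglycan complex. The others were the control of G2 and mitosis, sphingomyelin and ceramide enzymes, and glycosyltransferases. By edgeR none of the listed genes passed in either difference between stages. For E12.5 against E11.5, 143 were tested by edgeR, with 18 at an unadjusted p under 0.05. There edgeR called 0.00653% of all genes. DESeq2 called 0 of the listed genes, beside 0.822% of all. For E11.5 against E9.5, 141 were tested, with 18 at an unadjusted p under 0.05, and edgeR called 0.026% of all genes. DESeq2 called 1 listed gene, Ccnb1, beside 2.9% of all. With so few edgeR calls in all, the lack of listed genes among them is no result about the lists. The lists' median log2 difference was -0.02 and -0.01 respectively, and that of all genes was -0.01 and -0.02.

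At E11.5 itself 3 of 139 listed genes passed by edgeR, a share near the 1.96% of all genes and so no result about the lists. There 26 were at an unadjusted p under 0.05. DESeq2 called 12 of 137, beside 9.3% of all genes, again a share near that of all. Ccnb1 and Ccnb2, the B-type cyclins that drive entry into mitosis, rose by 0.47 ± 0.08 (adjusted p = 0.0262) and 0.35 ± 0.07 (adjusted p = 0.0432). Sgce, a sarcoglycan of the dystroglycan complex, fell by 0.44 ± 0.08 (adjusted p = 0.0329). Each of the 3 calls was lost without wild-type replicate 1, without wild-type replicate 2 or without knockout replicate 3, and those of Ccnb2 and Sgce also without knockout replicate 2. The adjusted p reached 0.169 for Ccnb1, 0.218 for Ccnb2 and 0.171 for Sgce. With limma on log2(RPKM + 1) it was 0.0548, 0.0686 and 0.05002. At E9.5 edgeR called 0 of 136 listed genes (6 at an unadjusted p under 0.05), beside 0.0217% of all genes. DESeq2 called 0 there, beside 0.138%. At E12.5 edgeR called 0 of 142 (24 at an unadjusted p under 0.05), beside 0.0138%. DESeq2 called 5 there, beside 3.06%.

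Relatives of some of the 8 genes are given here, and others that were measured are not printed. Tmsb4x, the major beta-thymosin, had a mean of 802 RPKM in the wild type and 811 RPKM in the knockout at E11.5 (log2 difference 0.02, adjusted p = 0.915). Among the DOCK genes, Dock6 was at 15.1 and 11.2 RPKM (log2 difference -0.44, adjusted p = 0.0616) and Dock9 at 4.88 and 3.46 RPKM (log2 difference -0.49, adjusted p = 0.0945), both opposite in sign to Dock11. Neither passed by edgeR, and both were called by DESeq2. Pgm1, a phosphoglucomutase gene, was at 19.98 and 19.1 RPKM (log2 difference -0.07, adjusted p = 0.751). Pgm2, another, was at 13.99 and 11.69 RPKM (log2 difference -0.26, adjusted p = 0.285). Smpd1, the lysosomal sphingomyelinase, had an E12.5 log2 difference of -0.09 (adjusted p = 0.596), where Smpd3 had the value given above. B3galt6, a galactosyltransferase of proteoglycan linkers, was at 4.88 and 5.61 RPKM at E11.5 (log2 difference 0.20, adjusted p = 0.399). Reads from beta-thymosin copies may be split between them, so Tmsb10 and Tmsb4x levels carry that uncertainty.

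The same lists changed with stage, as did most genes. From E11.5 to E12.5, averaged over genotypes, 57 of 143 rose and 29 fell, where 54.2% of all genes changed. Of all 15324 genes tested, 4149 rose and 4149 fell. The lists were chosen with earlier results known, so the counts below are descriptions. In the dystroglycan list 15 of 24 rose and 2 fell (median log2 change 0.25, against 0.01 for all genes). Sgca, a sarcoglycan of muscle, rose by 3.11 ± 0.39 (adjusted p = 3.67e-05). Among the adhesion partners of Pgm5, 8 of 15 rose and 3 fell. Xirp1 and Nrap, actin-binding proteins of muscle attachment sites, rose by 7.15 ± 0.75 (adjusted p = 2.60e-05) and 2.90 ± 0.39 (adjusted p = 6.24e-05). Around Rprm 10 of 16 genes of mitotic control fell and 1 rose, Cdkn1a, a p53 target (0.82 ± 0.12, adjusted p = 1.31e-04). Ccnb1 fell by 0.74 ± 0.07 (adjusted p = 8.93e-06). Rprm thus rose with stage where most of its list fell.

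Of the 16 nearest tested neighbours on the chromosomes, 1 passed by edgeR at E11.5, beside 1.96% of all genes, and DESeq2 called 3, beside 9.3%. Lifr, a cytokine receptor gene beside Egflam, fell by 0.53 ± 0.09 (adjusted p = 0.0247), in the same direction as Egflam. This call was lost without wild-type replicate 1 or 2 or knockout replicate 2 or 3 (adjusted p from 0.062 to 0.157) and with limma on log2(RPKM + 1) (adjusted p = 0.0895). Sh3bgr beside B3galt5 had -2.49 (adjusted p = 0.0599) and Galnt13 beside Rprm -1.41 (adjusted p = 0.0608), both with the sign of their neighbour. Neither passed by edgeR, and both were called by DESeq2. The remaining neighbours at E11.5 lay between -0.19 and 0.61. At E9.5 0 of 16 passed (0 at an unadjusted p under 0.05), and at E12.5 0 of 16 (1 at an unadjusted p under 0.05), with 0 by DESeq2 at both. In the differences between stages edgeR called 0 of 16 (4 at an unadjusted p under 0.05 in each), and DESeq2 called Sh3bgr for E11.5 against E9.5 and Lifr for E12.5 against E11.5.

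Across the 18 libraries, with each stage's mean removed, each gene had a few close companions among the genes that reached 1 RPKM in some group. The correlations are descriptions over libraries that share genotype and preparation. Egflam was most like Acta2 (Pearson r = 0.89) and Actc1 (r = 0.87), actins of smooth and striated muscle. Rprm was most like Cytl1 (r = 0.95) and Matn1 (r = 0.94), which are expressed in cartilage. Smpd3 was most like 3110079O15Rik (r = 0.91) and Panx3 (r = 0.89), the latter a channel gene of cartilage and bone. Both companions of Smpd3 were too low to be tested at E9.5 and E11.5, so these correlations rest mainly on the E12.5 libraries. Matn1 was too low to be tested at E9.5.

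The other 5 genes had these companions. Pgm5 was most like Prr22 (r = 0.90) and Rpl7a (r = 0.87), a ribosomal protein gene with many near-identical copies. Dock11 was most like Anapc4 (r = 0.92), of the anaphase-promoting complex, and Ckap2 (r = 0.91), of the mitotic spindle. Basp1 and Tmsb10 were close to each other (r = 0.88), and Basp1 was next most like Psma3 (r = 0.87), a proteasome subunit gene. Tmsb10 was most like Nup54 (r = 0.90), a nuclear pore gene, and Gm3258 (r = 0.89). B3galt5 was most like Pik3r5 (r = 0.89) and Alpk2 (r = 0.86), the latter too low to be tested at E9.5. Within the 8, Pgm5 went with Egflam (r = 0.76) and B3galt5 (r = 0.82) and against Dock11 (r = -0.82). The knockout effects that helped choose the 8 enter these correlations, so their signs are no separate result.

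Markers of other tissues moved with genotype in the same libraries. At E11.5 the summed skeletal muscle markers spanned 61.8 to 196.5 RPKM in the wild type and 21.65 to 37.04 RPKM in the knockout. All 12 of 12 markers had a negative log2 difference (median -2.11), of which Pax7 and Tnni1 passed, and none was at 0. Cartilage markers spanned 282 to 402 RPKM against 155 to 227 RPKM, with 11 of 12 negative and 4 past the threshold (Sox9, Col2a1, Matn1 and Lect1). These sums did not overlap, as for Pgm5, Egflam and Rprm.

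Smaller sums moved too at E11.5. Macrophage markers spanned 19.9 to 24.5 RPKM against 15.1 to 17.8 RPKM (9 of 10 negative, 0 past the threshold). Schwann cell and neural crest markers spanned 8.27 to 12.4 RPKM against 4.94 to 7.67 RPKM (5 of 5 tested negative, 0 past the threshold). Surface ectoderm markers spanned 151 to 188 RPKM against 191.5 to 215 RPKM, higher in the knockout as were Basp1, Tmsb10 and Dock11 (0 of 10 negative, 0 past the threshold).

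At E12.5 the muscle sums overlapped (740 to 1145 RPKM against 415 to 882.5 RPKM), with 11 of 12 markers still negative (median log2 difference -0.47, 0 past the threshold), while Pgm5 and Egflam were at 0.12 and 0.11. Cartilage sums stayed apart (610 to 684 RPKM against 376.5 to 490 RPKM, 10 of 12 negative, 0 past the threshold). Rprm, Basp1 and Smpd3 were also lower without overlap at E12.5, and Dock11 and B3galt5 higher. Macrophage sums (34.8 to 42.3 RPKM against 24.3 to 30.6 RPKM) were also lower in the knockout (9 of 10 negative, 0 past the threshold). Neuron sums (30.25 to 30.95 RPKM against 23.95 to 25.4 RPKM) were lower as well (4 of 6 tested negative, 0 past the threshold). Surface ectoderm sums, higher in the knockout at E11.5, overlapped at E12.5 (240 to 437 RPKM against 264 to 313 RPKM). There 9 of 10 markers were negative (median log2 difference -0.18, 0 past the threshold). Whether any of these tissues has a part in the values of the 8 genes was not tested, nor was the part of depth at E11.5.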

How the data were processed

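Polyadenylated RNA from 18 libraries was prepared with a stranded TruSeq kit, per the labels' protocols. The tools were FastQC, TopHat2 and Cuffdiff and the build was mm9, per the submitters' processing notes. The strand setting and the annotation were not given in the sources used here. The authors deposited 1 Cuffdiff table per stage. Raw fragments, which are estimated counts per the file headers, were rounded to whole numbers (1.79% were not whole). RPKM values, normalized per kilobase and library size by the authors, were deposited beside them and give the levels here. Scaled fragments, a signal deposited in the same tables, entered no test. Cuffdiff's replicate indices were taken in order as the labels' replicate numbers, on which genotype and stage do not depend. Of 23929 genes 23919 were kept, leaving out 6 listed at 0 with a failed estimate and 2 symbols, each on 2 rows, that spreadsheet software had turned into shared dates.

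Fits used edgeR 4.0.16 in R 4.3.3 (TMM, filterByExpr, robust quasi-likelihood F test) over all genes, with Benjamini-Hochberg adjustment and a threshold of 0.05. Each stage was fitted with its 6 libraries, and contrasts between stages with 12. SEs derive from the F statistic. Alternatives were DESeq2 1.42.0, limma 3.58.1 on log2(RPKM + 1) or log2(RPKM + 0.1), RLE size factors, no filter, all 18 libraries, the replicate number as a block and leaving out each library. The fits were tested on simulated data with 50 changed genes at each fold. For E12.5 against E11.5 the test of the knockout effect recovered 26% of 1.5-fold and 50% of 2-fold changes. For E11.5 against E9.5 it recovered 14% and 42%. The genotype test at E11.5 recovered 54% and 70%. A lack of calls is therefore weak evidence of no change. No replicate pair agreed within sampling noise (chi-square per degree of freedom at least 8.26). Depth sets the precision of low genes, chiefly B3galt5 and Smpd3. The 8 genes and the lists were chosen with earlier results of these data known. Named genes were the 8, Pitx1, listed genes past a threshold (up to 4 per list and comparison, by size), both nearest tested neighbours and the 2 genes most alike in log2 CPM (prior count 2) with the stage mean removed. Not all of these are printed. The relatives of the 8, such as Tmsb4x, and the marker genes were named outside this rule, after their values were seen.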

Additional observations from a re-analysis of the deposited data

Results flagged for a closer look

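Among the 8 genes, the knockout effect on Pgm5 differed between E12.5 and E11.5 by 1.42 ± 0.18 (log2), and that on Rprm between E11.5 and E9.5 by -1.43 ± 0.21. Both passed the edgeR test of the difference between stages. Since this difference is also what put both genes among the 8, it is no independent evidence.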

How the results depend on the processing

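Numbers of genes called depended strongly on the processing. For E9.5, 3 genes became 19 with DESeq2, 0 with a replicate block and 0 with all 18 libraries, and 0 to 2 with 1 library left out. For E11.5, 286 became 1305 with DESeq2, 692 with all libraries, 525 without the filter, 79 and 94 with limma on log2(RPKM + 1) and log2(RPKM + 0.1), and 100 with the block. Leaving out 1 E11.5 library gave 9 (wild-type replicate 1), 75 (wild-type replicate 2), 643 (wild-type replicate 3), 599 (knockout replicate 1), 135 (knockout replicate 2) or 14 (knockout replicate 3). For E12.5, 2 became 443 with DESeq2, 23 with all libraries, 5 without the filter, 4 with either limma fit, 386 with the block and 1 to 15 with 1 library left out. For the effect at E12.5 minus that at E11.5, 1 became 121 with DESeq2, 2 without the filter, 0 with all libraries, 0 with limma on log2(RPKM + 1) and 0 to 5 with 1 library left out. For E11.5 minus E9.5, 4 became 385 with DESeq2, 15 with all libraries, 2 with limma on log2(RPKM + 0.1), 1 with the block and 0 to 9 with 1 library left out. The cause was not tested. The replicate numbers did not pair the samples: same-numbered knockout and wild-type libraries had deviations correlated by -0.27 to 0.20, and only at E12.5, for numbers 1 and 3, did libraries correlate best with their own number. With the block the E11.5 adjusted p was 0.0505 for Ccnb1, 0.103 for Ccnb2, 0.0751 for Sgce and 0.0704 for Lifr. Of the 8 genes the block added calls of Rprm and Smpd3 at E12.5 and ended those of Basp1 at E11.5 and of Rprm for E11.5 minus E9.5. Of 596 knockout effects and differences of the 8 genes under alternatives, 590 moved by less than the spread between replicates and 6 by more: those of Pgm5 with limma on log2(RPKM + 1) (-0.99 at E11.5, -0.94 and 1.10 between stages), Tmsb10 as given, and B3galt5 without E11.5 knockout replicate 1 (-5.04 and 6.59). Of 272 averaged stage changes, 259 kept their direction and side of the threshold. Values near 0 turned sign: Basp1 from E9.5 to E11.5 to -0.0221 or -0.022 without replicate 2 of the E9.5 wild type or knockout and to -0.0156 without E11.5 knockout replicate 2 (over all such fits -0.0221 to 0.0613), and Smpd3 from E11.5 to E12.5 to 0.0718 without E12.5 wild-type replicate 1 (over all such fits -0.225 to 0.0718).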
